A study of Mus musculus with 24 samples.

Results

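The T and B lymphocyte genes described here are 9 genes that serve as common markers of these cells: Cd3d, Cd3e, Cd3g, Cd4, Cd8a and Lck for T cells, and Cd79a, Cd79b and Ms4a1 for B cells. They were chosen by name from a table of 14407 genes, and all 9 were found at the loci of the reference annotation. The libraries hold RNA of whole left kidneys whose ureter had been obstructed (UUO, unilateral ureteral obstruction, which traps urine and brings tubular injury and fibrosis) or that had undergone sham surgery. Animals were given vehicle, or istradefylline, which blocks the adenosine receptor encoded by Adora2a, in an early or a late course. Each of the 3 treatments was combined with each surgery, which gave 6 groups of 4 libraries and 24 libraries in all. Every group was of the wildtype genotype and had an operation. The labels state no dose, no length of either course, no age and no sex. They also leave unsaid whether the libraries of a group are separate animals, so p-values measure only how much these libraries varied.

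T cells recognise antigen through a receptor that signals through the CD3 chains, which Cd3d, Cd3e and Cd3g encode, and the kinase encoded by Lck starts that signal. Cd4 and Cd8a encode the coreceptors of helper and cytotoxic T cells, though some dendritic cells also carry Cd4 or Cd8a. Cd79a and Cd79b encode the signalling chains of the B cell receptor, and Ms4a1 encodes a surface protein of mature B cells. In obstructed kidneys leukocytes enter the space between the tubules, and lymphocytes can gather there in clusters that resemble lymphoid tissue. In whole tissue, fewer cells of a type and less RNA per cell cannot be told apart.

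The 3 CD3 genes lie together on chromosome 9 of GRCm38: Cd3g (ENSMUSG00000002033) at 44969572 to 44980431 on the minus strand, Cd3d (ENSMUSG00000032094) at 44981786 to 44987339 on the plus strand, and Cd3e (ENSMUSG00000032093) at 44998740 to 45009627 on the minus strand. Cd3g and Cd3d point away from each other, with 1355 bases between their starts. Cd4 (ENSMUSG00000023274) and Cd8a (ENSMUSG00000053977) lie on chromosome 6 at 124864692 to 124888221 and 71373427 to 71379173. Lck (ENSMUSG00000000409) spans 129548344 to 129573641 of chromosome 4, Cd79a (ENSMUSG00000003379) spans 24897381 to 24902197 of chromosome 7, Cd79b (ENSMUSG00000040592) spans 106311341 to 106314762 of chromosome 11, and Ms4a1 (ENSMUSG00000024673) spans 11249675 to 11266241 of chromosome 19.

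Promoter windows from RefSeq, 250 bases before a start and 50 after it on GRCm38.p6, were available for 6 of the 9 genes: Cd3d, Cd3e, Cd3g, Cd8a, Lck and Cd79a. Lck had a window at each of its starts, so there were 7 windows. Those of Cd79a and Cd3e are shown because these genes represent the B and T cell genes that moved together across obstructed kidneys, and both Lck windows because its transcripts divided between these starts. Capitals mark the letters GGAAGT, a core bound by ETS family factors, or its reverse complement, and in the upstream Lck window also TGTGGT, a core bound by RUNX factors.
Cd79a chr7:24897247-24897546, plus strand: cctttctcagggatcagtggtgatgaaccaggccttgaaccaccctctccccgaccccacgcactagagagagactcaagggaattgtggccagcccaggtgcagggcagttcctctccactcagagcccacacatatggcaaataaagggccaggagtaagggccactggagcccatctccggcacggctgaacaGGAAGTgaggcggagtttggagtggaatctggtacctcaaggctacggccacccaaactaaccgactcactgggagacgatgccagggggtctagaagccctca
Cd3e chr9:45009562-45009861, minus strand: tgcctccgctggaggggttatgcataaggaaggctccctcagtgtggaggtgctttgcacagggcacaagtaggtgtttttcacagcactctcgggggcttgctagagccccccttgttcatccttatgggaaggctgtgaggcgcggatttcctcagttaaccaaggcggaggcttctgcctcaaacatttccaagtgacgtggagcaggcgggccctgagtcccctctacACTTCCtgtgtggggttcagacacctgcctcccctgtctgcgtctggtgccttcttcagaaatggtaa
Lck upstream start chr4:129573592-129573891, minus strand: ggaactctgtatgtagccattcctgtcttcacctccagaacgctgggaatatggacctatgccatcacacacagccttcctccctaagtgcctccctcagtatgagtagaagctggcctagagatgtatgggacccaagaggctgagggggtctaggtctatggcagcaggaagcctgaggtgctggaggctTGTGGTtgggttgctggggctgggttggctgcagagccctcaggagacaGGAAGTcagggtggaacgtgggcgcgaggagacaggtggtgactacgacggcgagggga
Lck downstream start chr4:129558323-129558622, minus strand: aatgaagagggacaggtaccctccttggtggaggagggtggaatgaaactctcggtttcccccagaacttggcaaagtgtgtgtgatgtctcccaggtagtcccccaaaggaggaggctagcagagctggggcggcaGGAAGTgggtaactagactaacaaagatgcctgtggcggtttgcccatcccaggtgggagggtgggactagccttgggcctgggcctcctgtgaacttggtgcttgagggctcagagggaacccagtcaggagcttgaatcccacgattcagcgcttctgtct
The ETS core, read on both strands, was present in 5 of the 7 windows, and in 23.8% of all 32851 windows of this length in the table. Counted from the RefSeq start of each window, it began 54 bases upstream in Cd79a and 18 in Cd3e. It began 9 bases upstream in the upstream and 113 in the downstream Lck window, and 199 in Cd3d, whose window is not shown. The Cd79a match lies inside the gene span given above, since the RefSeq start is downstream of the first base of that span. The RUNX core was in 1 of the 7 windows, against 16.8% of all windows. No window held ATTTGCAT (the octamer), the EBF1 motif or TATAAA, which 1.74%, 0.904% and 13.6% of all windows held. None of these 5 motifs overlapped another in the windows shown. These matches describe letters in a window and are not evidence of binding.

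The values are FPKM, fragments scaled for exon length and library depth, as deposited, and read totals were not used. The spacing of the lowest values gave estimates of 8040000 to 13480000 fragments per library. They were sought between 7000000 and 14000000, since spacing alone cannot separate a value from its multiples. Of the 9 genes, 8 reached 1 FPKM in at least 4 libraries and were tested among 13127 genes. Ms4a1 reached 1 FPKM in 1 library and was left out of that test. Tests compared log2(FPKM + 1) with limma, with Benjamini-Hochberg adjustment over the 13127 genes and the threshold set at 0.05. A gene is said to have risen or fallen where it passed, and the log2 changes understate the change of genes with low values.

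Several obstructed libraries stood apart from the rest of their group. UUO vehicle replicate 3 held far more RNA of B cell genes than any other library, together with more of some genes of lymphoid tissue. UUO early replicate 4 had the highest summed level of a neutrophil list (1450 FPKM, against 23.3 to 171 in the other 11 UUO libraries) and of a skeletal muscle list (2890 FPKM), and the lowest of a kidney tubule list (302 FPKM). The muscle list was also high in UUO early replicates 1 and 2, at 61.3 and 148 FPKM, and no higher than 3.73 FPKM in the other UUO libraries. UUO late replicate 4 had the next lowest tubule sum, 393 FPKM. Tubule sums were 664 to 1250 FPKM in the remaining UUO libraries and 2050 to 2440 FPKM in the 12 sham libraries. The part that these differences in tissue content had in the lymphocyte results was not tested. Counts of genes are therefore also given without UUO vehicle replicate 3 and UUO early replicate 4, a choice made after seeing the data.

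T cell genes were low in sham and higher in every obstructed group. Lck, with a median of 0.378 FPKM in the 12 sham libraries (0.266 to 0.632), reached 3.25, 4.58, 11.6 and 6.04 FPKM in UUO vehicle, 2.81, 4.4, 2.88 and 7.37 FPKM in UUO early, and 5.19, 4.76, 5.27 and 8.23 FPKM in UUO late. The lowest obstructed library was above the highest sham library, so the surgeries did not overlap. The highest library of each obstructed group was replicate 3 in UUO vehicle and replicate 4 in UUO early and UUO late. Lck rose by a log2 change of 2.22 (SE 0.25, limma adjusted p = 2.12e-07) under vehicle, 1.91 (SE 0.25, adjusted p = 1.18e-06) in the early course and 2.31 (SE 0.25, adjusted p = 7.41e-08) in the late course.

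The CD3 chain genes were likewise highest in UUO vehicle replicate 3 or in a replicate 4. Cd3d was at 0.0624 to 0.482 FPKM in sham (median 0.245). It was at 2.93, 2.42, 9.28 and 4.53 FPKM in UUO vehicle, 2.13, 3.35, 2.52 and 8.89 FPKM in UUO early, and 3.63, 4.38, 4.14 and 6.74 FPKM in UUO late. Cd3e was at 0 to 0.186 FPKM in sham and 0.187, 1.01, 2.69 and 0.747 FPKM in UUO vehicle. Its lowest obstructed library, UUO vehicle replicate 1, sat just above the highest sham library, so its separation is narrow. In UUO early Cd3e was at 0.423, 0.962, 0.373 and 2.1 FPKM, and in UUO late at 0.996, 1.33, 0.768 and 2.02 FPKM. Cd3g ran from 1.25 to 9.12 FPKM in the 12 UUO libraries (median 3.05) and from 0 to 0.408 FPKM in sham, with its highest value in UUO early replicate 4. Each CD3 gene rose in all 3 comparisons with sham. The log2 changes under vehicle, early and late were 2.05, 1.84 and 2.29 for Cd3d, 1.66, 1.74 and 2.24 for Cd3g, and 0.87, 0.85 and 1.06 for Cd3e, with SEs of 0.31, 0.36 and 0.26. The largest limma adjusted p among these 9 tests was 0.00603, for Cd3e in the early course. Without UUO vehicle replicate 3 the Cd3e change under vehicle was 0.57, still past the threshold (adjusted p = 0.0312; 0.000283 to 0.0312 over 17 alternatives).

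Cd4 and Cd8a, the coreceptor genes, differed from each other. Cd4 was at 0 to 0.244 FPKM in sham and at 1.24, 2.32, 4.18 and 5.03 FPKM in UUO vehicle, 2.83, 2.63, 2.16 and 7.97 FPKM in UUO early, and 3.29, 4.06, 4.07 and 8.71 FPKM in UUO late. Alone among the 6 T cell genes, its highest UUO vehicle library was replicate 4, not replicate 3. Cd4 rose by 1.79 (SE 0.3), 2.07 (SE 0.3) and 2.36 (SE 0.3) on the log2 scale under vehicle, early and late, with limma adjusted p of 2.43e-05, 3.21e-06 and 4.56e-07. Cd8a was at 0.132 to 0.702 FPKM in sham. It reached 0.773, 1.76, 5.07 and 1.52 FPKM in UUO vehicle, 1.05, 1.99, 0.627 and 0.721 FPKM in UUO early, and 1.53, 2.19, 1.87 and 3.15 FPKM in UUO late. UUO early replicate 3 lay within the sham range for Cd8a, and UUO early replicate 4, the highest or next to highest UUO library for Cd3d, Cd3e, Cd3g and Cd4, was near the bottom. Cd8a rose under vehicle (1.05, SE 0.27, limma adjusted p = 0.0017) and in the late course (1.25, SE 0.27, adjusted p = 0.00027). In the early course its change of 0.55 (95% interval -0.01 to 1.11, adjusted p = 0.0707) missed the threshold, although the 4 UUO early libraries were above the 4 sham early libraries. That call turned under 6 of 17 alternatives, over which the adjusted p ran from 0.00629 to 0.243, so it sits at the threshold.

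**Figure D1:**
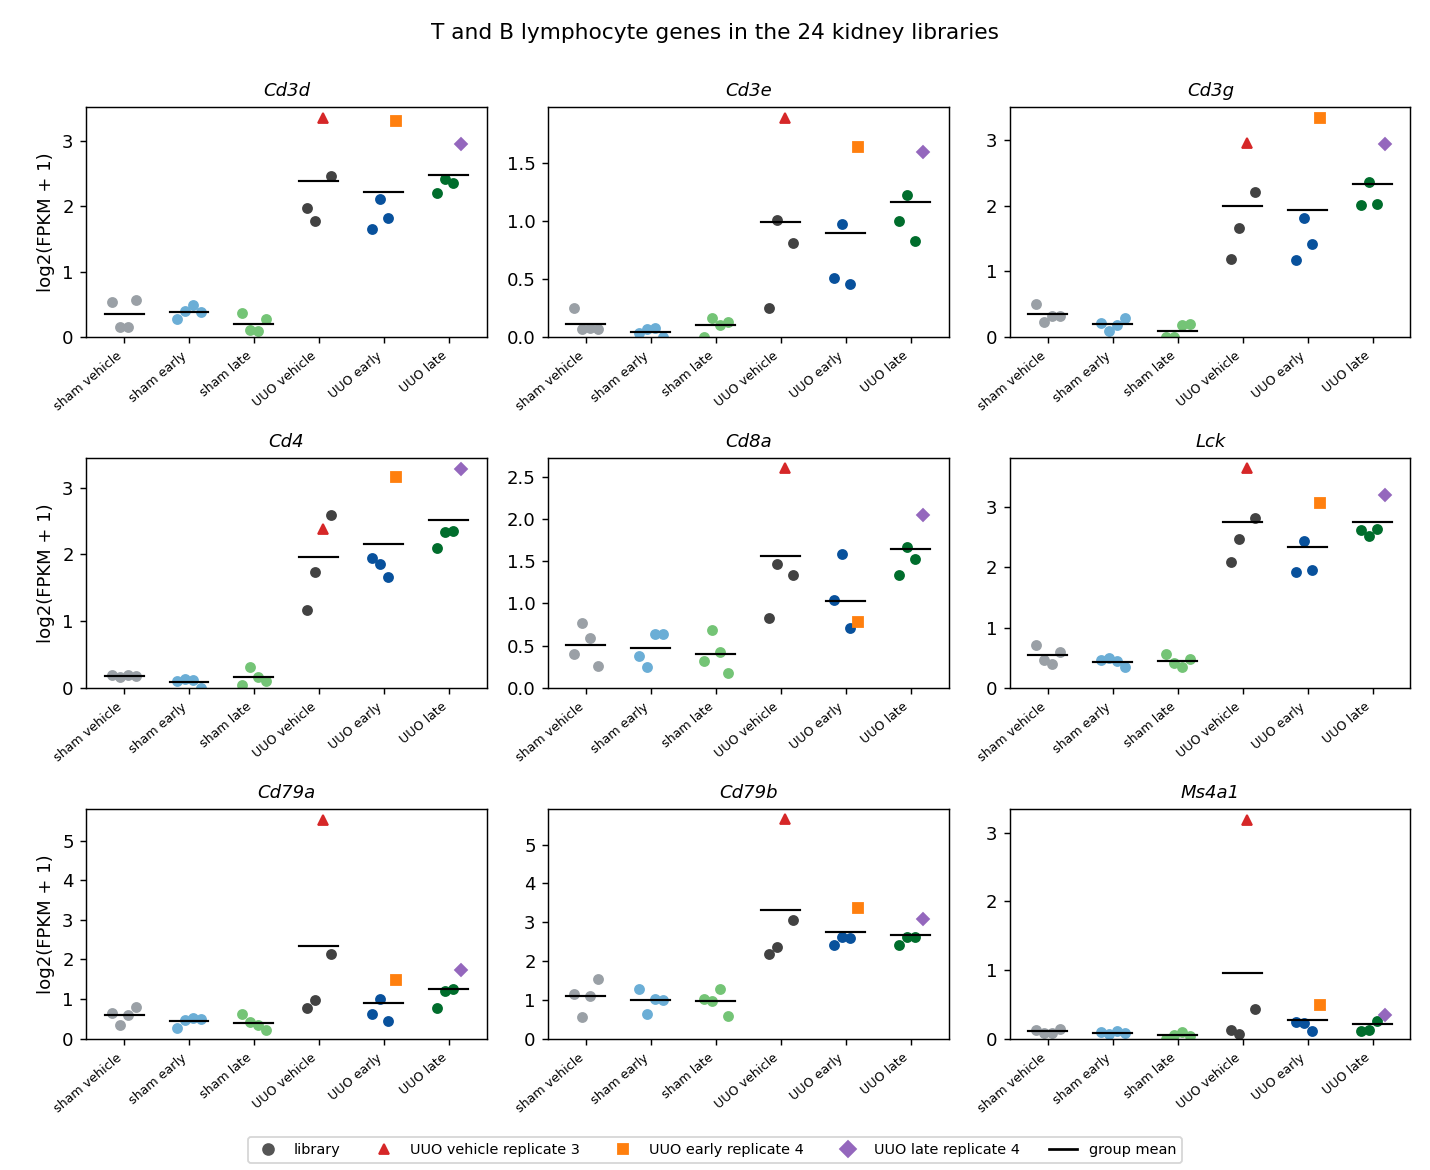
Level of each of the 9 lymphocyte genes as log2(FPKM + 1) in the 24 libraries, by group; points are libraries, horizontal lines are group means of 4 libraries, and special markers show UUO vehicle replicate 3, UUO early replicate 4 and UUO late replicate 4. Cd3d, Cd3e, Cd3g, Cd4, Lck and Cd79b lie above every sham library in all 12 UUO libraries, and Cd79a, Cd79b and Ms4a1 peak in UUO vehicle replicate 3.

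B cell genes behaved less evenly. Cd79b was at 0.482 to 1.92 FPKM in sham (median 1.04) and at 3.5, 4.1, 49.6 and 7.33 FPKM in UUO vehicle, 4.31, 5.11, 5.07 and 9.31 FPKM in UUO early, and 4.33, 5.1, 5.15 and 7.48 FPKM in UUO late. All 12 UUO libraries were above every sham library, and 1 of them was 5.33 times as high as the next. Cd79b rose by 2.22 (SE 0.48, limma adjusted p = 0.000422) under vehicle, 1.76 (SE 0.48, adjusted p = 0.00277) in the early course and 1.71 (SE 0.48, adjusted p = 0.00321) in the late course. Without UUO vehicle replicate 3 the change under vehicle was 1.44 (adjusted p = 8.18e-05; 2.66e-05 to 0.0198 over 17 alternatives).

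Cd79a, the partner chain of Cd79b, was at 0.7, 0.976, 45.3 and 3.37 FPKM in UUO vehicle, 0.552, 1.02, 0.357 and 1.78 FPKM in UUO early, and 0.712, 1.3, 1.39 and 2.34 FPKM in UUO late. In sham it was at 0.168 to 0.737 FPKM with a median of 0.4, and only 8 of 12 UUO libraries were above every sham library. The change under vehicle was 1.76 (SE 0.62, 95% interval 0.47 to 3.06, limma adjusted p = 0.0171), past the threshold. Without UUO vehicle replicate 3 it fell to 0.7 with an adjusted p of 0.0307, and with only the libraries of the groups compared it kept its size and missed the threshold (adjusted p = 0.121; 0.00252 to 0.121 over 17 alternatives). In the early course the change was 0.45 (95% interval -0.85 to 1.75, adjusted p = 0.528) and in the late course 0.84 (95% interval -0.46 to 2.13, adjusted p = 0.229), although the 4 UUO late libraries were above the 4 sham late libraries. The late change passed the threshold when only the groups compared were fitted (adjusted p = 0.00377; 0.00377 to 0.392 over 16 alternatives), a fit without UUO vehicle replicate 3. Ms4a1 was at 0.0877, 0.0465, 8.11 and 0.351 FPKM in UUO vehicle and at no more than 0.4 FPKM in the other 2 UUO groups, with a sham range of 0 to 0.0999 FPKM. Fitted with no filter on low values, its log2 change under vehicle was 0.84 (SE 0.41, limma adjusted p = 0.0767 over 14407 genes), and 7 of 12 UUO libraries exceeded every sham library.

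In counts, 8 of the 8 tested genes rose in UUO vehicle against sham vehicle, where 50.3% of all tested genes rose. In UUO early against sham early 6 of 8 rose, against 54.7% of all, and in UUO late against sham late 7 of 8 rose, against 59% of all. Over all UUO against all sham 8 of 8 rose, against 62.7% of all. Of the 9 genes, 6 lay above every sham library in all 12 UUO libraries, against 35.1% of tested genes. None fell. Every gene of the 8 except Cd79b stayed under 1 FPKM in all 12 sham libraries and passed the filter only through UUO libraries. The filter thus favoured a rise, so the counts beside the shares of all tested genes are descriptions. Ms4a1, which the filter removed, missed the threshold when fitted without it. Its limma adjusted p was 0.0767 under vehicle, 0.707 in the early and 0.735 in the late course. The median log2 change of all genes was itself above 0, at 0.32 under vehicle, 0.4 in the early course and 0.49 in the late course, while the T cell genes had medians of 1.72, 1.79 and 2.27 and the 2 tested B cell genes 1.99, 1.1 and 1.27. Under median-of-ratios scaling the medians of all genes were 0.025, 0.037 and 0.042, the calls split nearly evenly (51.9%, 52.2% and 52.2% of called genes higher, against 75.1%, 76% and 78.1%), and the counts of the lymphocyte genes stayed at 8, 6 and 7. With UUO vehicle replicate 3 and UUO early replicate 4 left out together, 8 rose under vehicle and 7 in the early course. For this fit and for median-of-ratios scaling, no share of all tested genes that rose is given beside the counts.

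**Figure D2:**
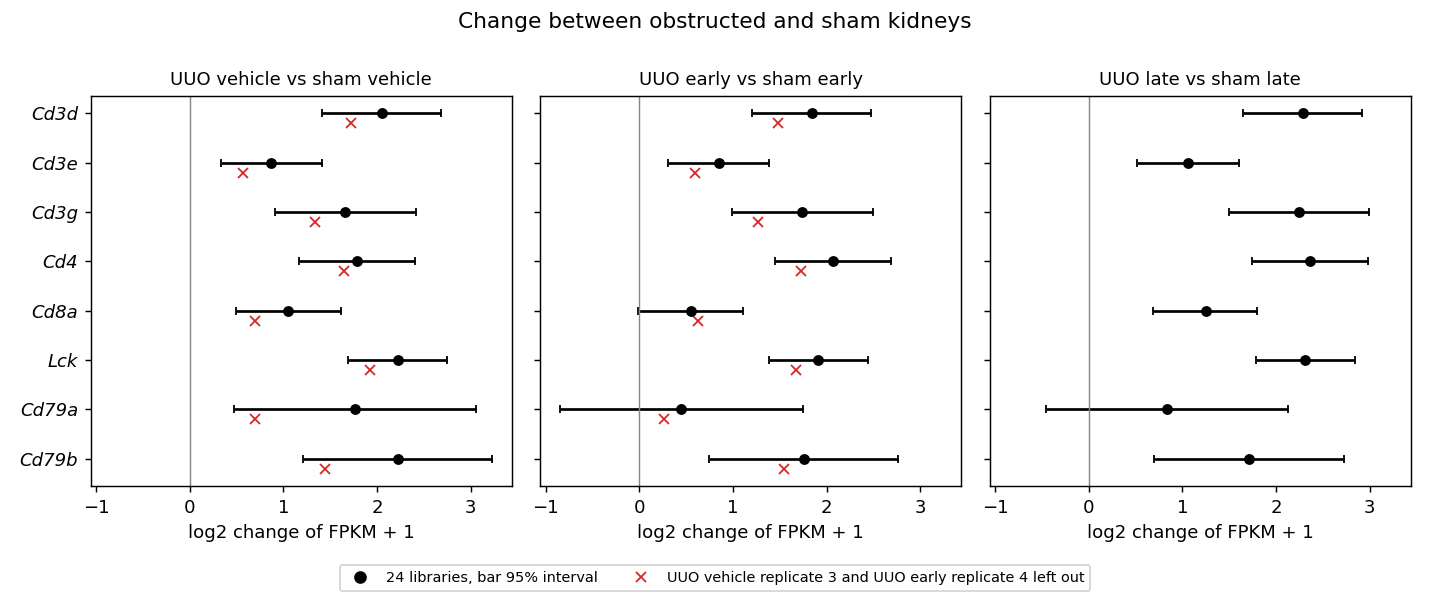
Log2 change of FPKM + 1 between UUO and sham for the 8 tested genes under vehicle, early and late treatment; black points and bars are the limma estimate and its 95% interval over 24 libraries, and red crosses are the estimates with UUO vehicle replicate 3 and UUO early replicate 4 left out. The Cd79a change under vehicle moved from 1.76 to 0.7 without those libraries, and the late comparison uses neither.

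UUO vehicle replicate 3 differed from the other 11 UUO libraries most strongly in the B cell genes of the 9. Its Cd79a was 44.3 times, its Ms4a1 46.2 times and its Cd79b 9.73 times the median of the other 11 UUO libraries. For the T cell genes the ratio ran from 1.27 for Cd4 to 3.31 for Cd8a. No share over all genes is given beside the counts that follow. This library held the highest UUO value of 4 of the 6 T cell genes. The same was true of 9 of 17 measured T cell receptor signalling genes and 7 of 12 measured cytotoxic and NK cell genes. UUO early replicate 4 was the highest for 7 and 2 of these. It was so for 7 of 16 T cell transcription factor and subset genes (UUO vehicle replicate 3 for 5) and 7 of 8 pan-leukocyte genes (0). Each was highest for 4 of 11 costimulation and checkpoint genes. High T cell genes were thus not particular to UUO vehicle replicate 3. UUO vehicle replicate 3 also held the highest UUO value of 15 of the 21 measured genes of a list of B cell receptor signalling and identity, and UUO early replicate 4 of 0. Among these, named after their values were seen, were Pax5, the transcription factor that fixes B cell identity (3.14 FPKM, at most 0.21 in other UUO libraries), Cxcr5, the follicle homing receptor (4.55, at most 0.41), and Fcer2a, a receptor of mature B cells (9.75, at most 0.708). Some genes of lymphoid tissue were high in the same library, again named after seeing them. It was the highest UUO library for 5 of 12 measured genes of the lymphoid chemokine list. For a lymphatic and high endothelium list it was so for 1 of 5. That list summed to 56.8 FPKM there, inside the range of 36.5 to 82.6 FPKM over all UUO libraries. The sum was mostly Pdpn (mean 50.3 FPKM in UUO, against 0.458 to 2.21 for the other genes), so it says little about those other genes. Glycam1, made by the high endothelium through which lymphocytes enter lymph nodes, was at 14.4 FPKM there, at most 0.335 in other UUO libraries and 0 in sham. Ccl21a, a chemokine that draws T cells, was at 60.5 FPKM (at most 13.3), and Cxcl13, which draws B cells to follicles, at 31.7 FPKM (at most 10.6, in UUO early replicate 4). Ccr7, the receptor for Ccl21a, was at 11.2 FPKM (at most 3.98). Mzb1, a gene of B and plasma cells, was at 8.82 FPKM (at most 1.78), while Jchain, a plasma cell gene, was higher elsewhere. The adipocyte list summed to 238 FPKM in this library, close to 229 FPKM in UUO early replicate 1 and 227 FPKM in UUO early replicate 4. The part of lymphoid tissue or fat in this sample was not tested.

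**Figure D3:**
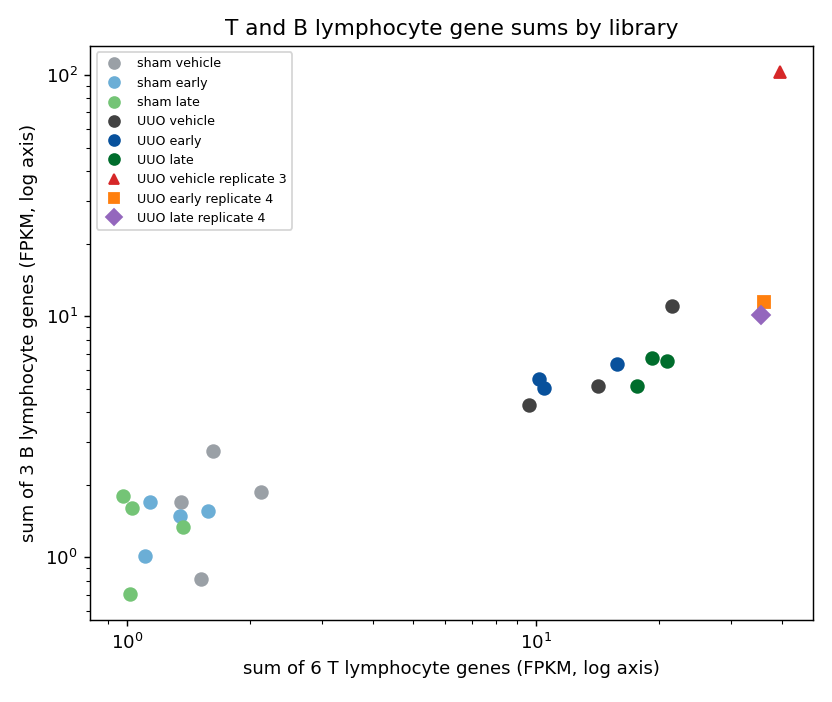
Summed FPKM of the 6 T cell genes (horizontal) and of the 3 B cell genes (vertical) in each library, both on log axes. UUO vehicle replicate 3 lies at 39.5 and 103 FPKM, while the other UUO libraries lie between 9.65 and 36.2 FPKM for T cell genes and between 4.28 and 11.5 FPKM for B cell genes.

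Sums of gene values were then set against each other within libraries, as descriptions with no test. The B cell sum over the T cell sum was 0.532 to 1.84 in the 12 sham libraries (median 1.04) and 0.284 to 0.539 in 11 of the 12 UUO libraries, with 2.61 in UUO vehicle replicate 3. In the other 11, T cell genes thus made a larger share of the summed lymphocyte FPKM than in nearly every sham library, with sham vehicle replicate 2 just inside the UUO range. In those 11 the B cell sum was mostly Cd79b, for example 4.31 of 5.05 FPKM in UUO early replicate 1. In sham, Cd79a rested on an estimated 2 to 11 fragments per library and Ms4a1 on 0 to 7. Against a sum of 8 pan-leukocyte genes, the T cell sum was 4.37 to 7.09% in sham and 3.86 to 8.64% in UUO, so these ranges overlapped. The B cell sum was 3.35 to 10.4% of the leukocyte sum in sham. In UUO it was 1.7 to 3.53% in 11 libraries and 22.5% in UUO vehicle replicate 3. UUO late libraries had the highest lower bound for T cells, 6.59 to 7.97%, against 3.86 to 5.97% in UUO early and 4.73 to 8.64% in UUO vehicle. In UUO late every library was above every UUO early library, a difference seen after the fact and not tested. The Cd4 value over the Cd8a value was at most 0.678 in sham and 0.824 to 11 in UUO. In sham it rested on an estimated 0 to 8 Cd4 fragments per library, so the sham ratios are rough. It is taken from gene values, so its size is not a ratio of transcripts. The lowest UUO ratio was in UUO vehicle replicate 3 and the highest in UUO early replicate 4. There Cd4 was at 7.97 FPKM and Cd8a at 0.721 FPKM.

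**Figure D4:**
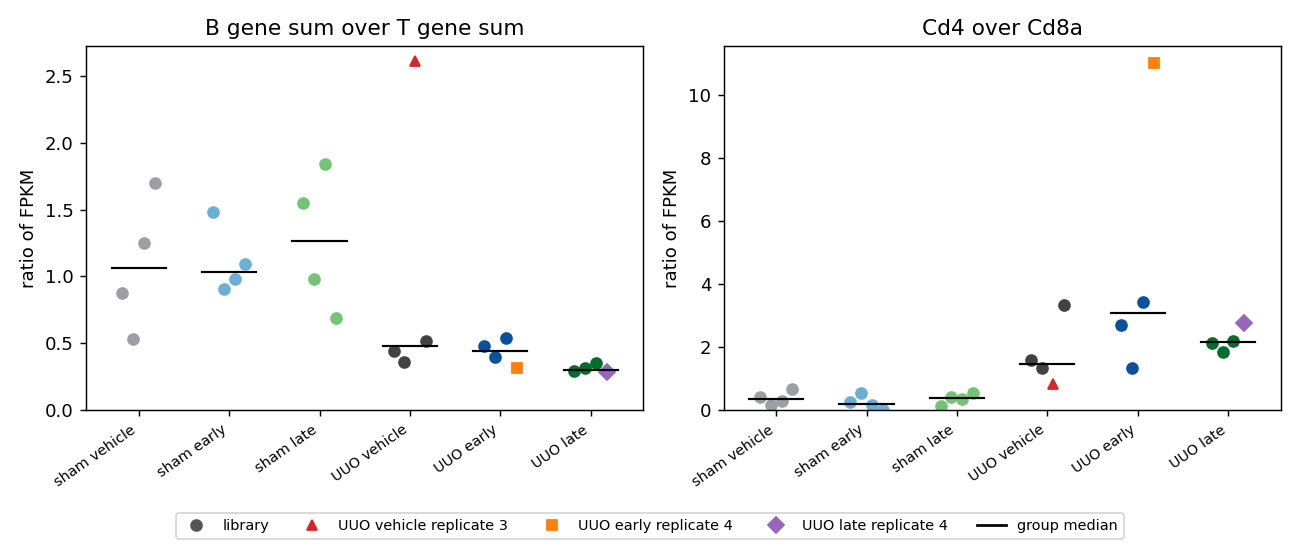
Ratio of the summed B cell genes to the summed T cell genes (left) and of Cd4 to Cd8a (right) in each library, from FPKM; points are libraries and lines are medians of 4. UUO libraries other than UUO vehicle replicate 3 lie at 0.284 to 0.539 on the left, and UUO early replicate 4 lies at 11 on the right.

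Levels of different genes were compared through the deposited transcript values, summed per gene, because gene values are divided by the length of all exons together. In UUO late, which holds neither UUO vehicle replicate 3 nor UUO early replicate 4, Cd3g was highest at 12.8 ± 5.25 FPKM (SD, n = 4). Lck (7.56 ± 2.14), Cd79b (6.59 ± 1.63), Cd4 (6.47 ± 3.12) and Cd3d (5.25 ± 1.55) followed, and neighbours among these 4 differed by less than 1 SD of either gene. The genes share libraries, so these SDs do not measure the uncertainty of a difference between genes, and the order was not tested. Cd3e (3.36 ± 1.62), Cd8a (2.09 ± 0.692), Cd79a (1.44 ± 0.674) and Ms4a1 (0.323 ± 0.18) were lower. The partner chains Cd79a and Cd79b were thus unequal by summed FPKM in this group, and in UUO vehicle replicate 3 they were at 45.3 and 59.3 FPKM.

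Lck transcripts divided between its starts. Lck-201, from the downstream start, was at 0.244 to 0.617 FPKM in sham and 2.38 to 7.98 FPKM in UUO (median 3.83). Lck-202, from the upstream start, was at no more than 0.011 FPKM in sham and 0 to 12.9 FPKM in UUO (median 1.9). It was at 0, 2.23, 12.9 and 0 FPKM in UUO vehicle, 0.0125, 1.68, 1.17 and 2.01 FPKM in UUO early, and 3.27, 1.8, 2.19 and 2.76 FPKM in UUO late. In UUO vehicle replicate 3 the upstream transcript was 84.4% of the Lck sum and the downstream transcript 2.38 FPKM, its lowest UUO value. In the other UUO libraries the upstream share was at most 49.5%. The split between overlapping transcripts is an estimate, and values at 0 can be failed estimates.

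No tested lymphocyte gene passed the threshold between the istradefylline courses and vehicle in obstructed kidneys. UUO early against UUO vehicle called 0 of 8 (0.0152% of all tested genes were called), with 1 at an unadjusted p under 0.05. That gene was Cd79a, with a log2 change of -1.46 (95% interval -2.76 to -0.16, limma adjusted p = 0.524). Without UUO vehicle replicate 3 that change was -0.4, and those of Cd3d, Cd3e, Cd3g and Cd79b turned from negative to positive. UUO late against UUO vehicle called 0 of 8 (0.137% of all), with 0 at an unadjusted p under 0.05. The largest positive change there was that of Cd4, 0.55 (95% interval -0.07 to 1.17, adjusted p = 0.582). It was 0.28 without UUO vehicle replicate 1, and 0.3 without UUO late replicate 4 or with array weights. Over 17 alternatives the Cd4 change ran from 0.28 to 0.76. Without UUO vehicle replicate 3 it was 0.69 and the other T cell genes were at 0.29 to 0.65, with 0 called. The largest negative change, that of Cd79a, was -1.11, and -0.05 without UUO vehicle replicate 3. UUO early against UUO late called 0 of 8 (0.0305% of all), with 1 at an unadjusted p under 0.05. Here it was Cd8a, with a log2 change of -0.62 (95% interval -1.18 to -0.07, limma adjusted p = 0.562). Intervals for single genes were wide: for Lck they ran from -0.94 to 0.12 in the early and from -0.53 to 0.52 in the late course, for Cd3e from -0.63 to 0.45 and from -0.37 to 0.71, and for Cd79b from -1.57 to 0.44 and from -1.63 to 0.38. These intervals include changes in either direction. UUO vehicle is shared by the first 2 of these comparisons.

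In sham kidneys, sham early against sham vehicle called 0 of 8 (0.00762% of all) and sham late against sham vehicle 0 of 8 (1.42% of all), with 0 at an unadjusted p under 0.05 in either by limma. The changes lay between -0.15 and 0.04 for the early and between -0.25 and -0.02 for the late course. The interaction of course and surgery called 0 of 8 in the early course (0.00762% of all) and 0 of 8 in the late course (0.0305% of all), with 0 at an unadjusted p under 0.05. The interaction for Cd8a in the early course was -0.5 (95% interval -1.29 to 0.29) and for Cd4 in the late course 0.58 (95% interval -0.3 to 1.45).

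Across the 12 UUO libraries most pairs of the lymphocyte genes were correlated. No share of correlated pairs among other genes is given beside these counts. Whether unrelated genes were correlated as often in these libraries was not tested. Of 36 pairs, 29 had a Pearson correlation of log2(FPKM + 1) with an adjusted permutation p under 0.05, and 28 by Spearman's rho (100000 permutations, Benjamini-Hochberg over 36 pairs). Among T cell pairs Cd3d and Cd3g were closest (r = 0.956, permutation p = 1e-05, adjusted 0.00018; rho = 0.958, adjusted 0.00036), followed by Cd3e and Cd3g (r = 0.928) and Cd3d and Lck (r = 0.922). A p of 1e-05 is the smallest these permutations can give. Within the T cell pairs Cd8a had the weakest ties, with r of 0.36 to Cd4, 0.499 to Cd3g and 0.519 to Cd3d, none under the threshold. The lowest r of all 36 pairs, 0.203, was between a T and a B cell gene. Without UUO early replicate 4 the count of T cell pairs under the threshold rose from 12 to 15 of 15, and the lowest r among them from 0.36 to 0.659.

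The B cell pairs had r of 0.966 to 0.969, and r was 0.756 to 0.89 without UUO vehicle replicate 3. Cd4 had r of 0.345 and rho of 0.846 with Cd79a over 12 libraries, and r of 0.76 and rho of 0.855 without that library (adjusted permutation p = 0.29 and 0.00247, then 0.0127 and 0.00421). Leaving out the 2 libraries farthest from the median of the first gene of each pair kept 20 of 36 pairs under the threshold by Pearson's r, with 7 of 18 pairs of a T and a B cell gene in place of 14. Over the 18 pairs the median r was 0.673 with 12 libraries and 0.57 with 10. On deviations from group means 26 of 36 pairs were under the threshold. All 36 correlations compare values of the same libraries, which also share depth and tissue content.

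The genes outside the 9 whose log2 levels ran closest to Cd3e over the 12 UUO libraries, as a description, were Itgb7, an integrin chain of lymphocytes that home to mucosa (r = 0.971), Il2rg, the shared chain of several interleukin receptors (r = 0.97), Myo1g (r = 0.965), Gpr171 (r = 0.964) and Cd6, a T cell surface receptor (r = 0.961). Without UUO vehicle replicate 3 these were 0.946 to 0.972. For Cd79a they were Fcrla, a B cell gene related to antibody receptors (r = 0.961), H2-Ob, a chain that adjusts antigen loading in B cells (r = 0.938), Gpr18 (r = 0.924), Ccl21a (r = 0.924) and Lax1 (r = 0.917). Without that library they were 0.721, 0.489, 0.595, 0.427 and 0.82, so the likeness to H2-Ob and Ccl21a lay mainly in 1 library.

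Other lymphocyte genes were counted in lists over all UUO against all sham, where the median of all genes was 0.41 and 62.7% of all tested genes rose. Of the T cell receptor signalling, costimulation, cytotoxic and B cell lists, 17, 11, 12 and 21 genes were measured and fewer were tested. Most of the tested ones had a mean under 1 FPKM in sham, so they passed the filter largely through UUO libraries. That favoured a rise, and such counts are descriptions. Of the T cell receptor signalling list 12 of 13 tested genes rose and 0 fell (median 1.5), among them Fyn, a kinase related to Lck (1.68), Vav1, an exchange factor of the receptor pathway (2.69), Ptpn22, a phosphatase that restrains it (1.59), and Lcp2, an adaptor (2.42), all also made by other blood cells. All 6 tested costimulation and checkpoint genes rose (median 1.25), among them Lag3 (1.62) and Btla (1.39), inhibitory receptors, and Tnfrsf4 (1.62) and Tnfrsf9 (1.11), costimulatory receptors. Of T cell transcription factor and subset genes 7 of 9 rose and 1 fell (median 1.26), a share not far from that of all genes. Those that rose included Tcf7, a factor of naive and memory T cells (2.1), Ccr7 (1.75), Gata3, also made in kidney epithelium (1.4), and Runx3, a factor of cytotoxic lymphocytes (1.26). All 7 tested cytotoxic and NK cell genes rose (median 1.93), with Ccl5, a chemokine of activated lymphocytes, at 3.34 (29.5 against 1.9 FPKM on average), Klrd1, an NK receptor chain, at 1.93, Ctsw at 1.98 and Nkg7, a granule protein, at 2.18. Limma adjusted p for the genes named in these lists were between 1.4e-14 and 1.13e-07.

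All 9 tested genes of the B cell list rose (median 1.52). Those with the smallest p, Blnk (1.16), Cd180 (1.43), Spib (1.99) and Tnfrsf13b (1.76), are B cell genes that myeloid or dendritic cells can also make. Of that list's 21 measured genes, 11 were above every sham library in all 12 UUO libraries, against 35.1% of the tested genes, though only 9 of the 21 were tested. Pax5 and Fcmr, named after their values were seen, were above every sham library in 6 and 7 of the 12. Of the plasma cell list 4 of 5 rose (median 1.11), again beside 62.7% of all genes, with Sdc1, also made by epithelium, at 2.81, Irf4 at 1.11, Jchain at 1.87 and Xbp1 at 0.45, close to the median of all genes. Of the lymphoid chemokine list 6 of 7 rose (median 1.74), with Cxcl10 at 3.09 and Cxcl9 at 2.44, chemokines for activated T cells, Ltb, a lymphotoxin that organises lymphoid tissue, at 3.08, and Tnfsf13b, a B cell survival factor, at 1.6. Limma adjusted p for the genes named by rank in these 3 lists were between 3.22e-15 and 9.55e-05.

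Markers of other cells moved with these genes. All 10 macrophage and monocyte genes rose with a median of 3.51 and all 8 pan-leukocyte genes with 3.39, more than the T cell genes' 1.97 and the B cell genes' 1.46 on the same log2(FPKM + 1) scale, which compresses genes with low values. The macrophage and monocyte sum was 34.7 to 53.2 FPKM in sham and 560 to 1160 FPKM in UUO. All 8 kidney tubule genes fell (median -2.08). Of the dendritic cell list all 6 tested genes rose (median 1.14), each with a sham mean under 1 FPKM, so the filter favoured this outcome. All 4 tested neutrophil genes rose (median 3.27), and the 5 erythroid genes had a median of 0. In the 3 comparisons between UUO groups, limma called 1 gene of the 18 lists, Clec9a, a receptor of cross-presenting dendritic cells, which was higher in UUO late than in UUO vehicle (4.26 against 1.19 FPKM, log2 change 1.27, SE 0.24, adjusted p = 0.0376).

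**Figure D5:**
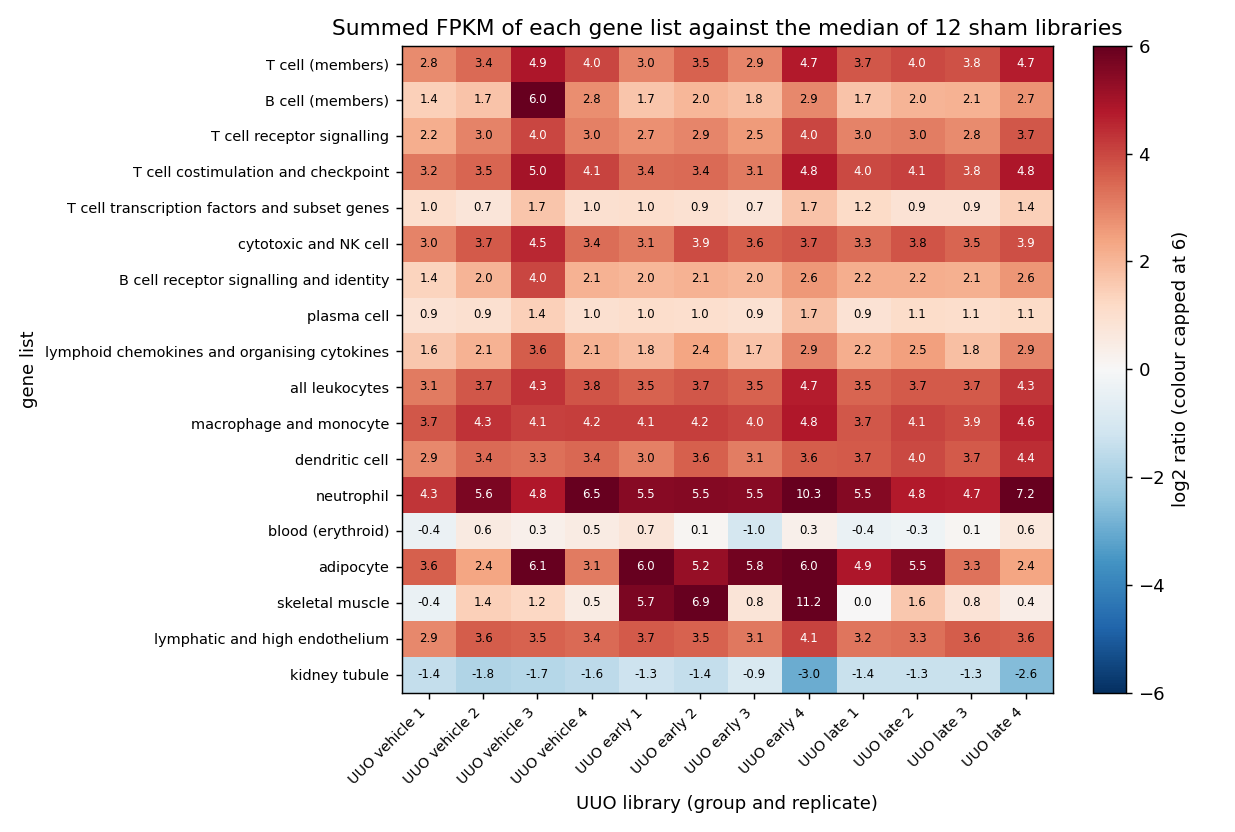
Log2 ratio of the summed FPKM of each gene list in each UUO library to the median of the 12 sham libraries; colour is capped at 6. B cell genes stand highest in UUO vehicle replicate 3, neutrophil and muscle genes in UUO early replicate 4, and tubule genes are below sham in all 12 UUO libraries.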

How the data were processed

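Gene and transcript FPKM values were deposited by the authors with a column for each library, per the file headers. Reads were handled with cutadapt, HISAT2 and StringTie on GRCm38, per the submitters' processing notes, which name no versions. RNA was extracted with Trizol and libraries were stranded, per the labels' protocols. Gene values matched fragments over the union of all annotated exons (median ratio 0.99), so levels of different genes were compared by summed transcript FPKM. Groups came from the labels, and replicate numbers of the vehicle libraries from the column names, with 0 columns left out. The largest group mean of every gene in the table was 0.5002 FPKM or more.

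Genes at 1 FPKM or more in at least 4 of 24 libraries were fitted on log2(FPKM + 1) by limma 3.58.1 (R 4.3.3) with 6 group means and a trend of variance on level. This left 18 residual degrees of freedom. Tests in 11 comparisons were two-sided, adjusted by Benjamini-Hochberg at 0.05. The scripts were tested on simulated data. The 9 genes and the other gene lists (18 lists in all, members included) were chosen with earlier results of these data known. Named genes were the 9, up to 4 of each lymphocyte list with the smallest p over all UUO against all sham, list genes called between UUO groups, and the 5 most like Cd3e and Cd79a; the others are marked as named after seeing them. Alternatives were a pseudocount of 0.1, no filter, FPKM rescaled to the same sum, median-of-ratios scaling, only the groups compared, no trend, array weights, the replicate number as a block and each library left out. UUO vehicle replicate 3 and UUO early replicate 4 were also left out together, a choice made after seeing the data. Some list genes are not reported here. Depth was only estimated, so no counting interval was computed.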

Additional observations from a re-analysis of the deposited data

Results flagged for a closer look

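In 78 sets of 4 libraries (the 9 genes and 4 ratios in 6 groups), 11 values lay far from the other 3 libraries of their group by Dixon's criterion. Chance meets it in about 5% of independent, normally distributed sets. These sets share libraries and genes, and some values rest on few fragments, so that rate gives no count to compare with 11. UUO vehicle replicate 3 gave 5 of them: Cd79a at 45.3 FPKM, Cd79b at 49.6 FPKM, Ms4a1 at 8.11 FPKM, a B cell sum of 22.5% of the leukocyte sum and a B over T sum of 2.61. UUO early replicate 4 gave Cd3g at 9.12 FPKM, Cd4 at 7.97 FPKM and Cd79b at 9.31 FPKM. UUO late replicate 4 gave Cd4 at 8.71 FPKM and Lck at 8.23 FPKM. Sham vehicle replicate 1 gave Cd3e at 0.186 FPKM, above the other 3 libraries of its group and near the lowest obstructed library. The values of other cell types in these libraries are given above, and their part in these results was not tested.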

How the results depend on the processing

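Over 215 recomputed counts of called lymphocyte genes and 16 of correlated pairs, each count stayed within 1.5 times the value reported. Leaving out single libraries gave 26 to 33 correlated pairs. "Only the groups compared" could not be run apart for all UUO against all sham, since it is the same fit. Among single genes, Cd79a under vehicle lost its call with only the groups compared (1.76, adjusted p = 0.121) and Cd79a in the late course gained it (0.84, adjusted p = 0.00377). Cd8a in the early course gained it with a pseudocount of 0.1 (1.22), rescaled FPKM (0.62), only the groups compared (0.55), array weights (0.74), without UUO early replicate 3 (0.66) and with both libraries left out (0.63). The cause was not tested.

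Changes of direction for single genes under the settings below were all between UUO groups, where no gene of the 9 was called. With array weights, Cd4 in early against vehicle was -0.18, and in late against vehicle Cd3d was -0.16, Cd3e -0.18, Cd3g -0.03 and Cd8a -0.19, while Cd79b in early against late was -0.02. Lck in late against vehicle was 0.01 with a pseudocount of 0.1 and 0.05 with rescaled FPKM. With both libraries left out, early against vehicle was -0.01 for Cd4 and 0.02 for Cd79b, late against vehicle was 0.29 for Lck and 0.16 for Cd79b, and early against late was -0.14 for Cd79b. Leaving out each library in turn, early against vehicle ran from -0.53 to 0.15 for Cd3d, -0.34 to 0.21 for Cd3e, -0.54 to 0.25 for Cd3g, -0.15 to 0.4 for Cd4 and -0.94 to 0.22 for Cd79b. Late against vehicle ran from -0.11 to 0.42 for Cd3d, -0.07 to 0.47 for Cd3e, -0.15 to 0.44 for Cd8a, -0.23 to 0.29 for Lck and -1.01 to 0.16 for Cd79b. Early against late ran from -0.14 to 0.2 for Cd79b.

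With the replicate number as a block, 8, 6 and 7 genes rose under vehicle, early and late, 0 were called between UUO groups, and 8 rose over all UUO against all sham. No share of all tested genes is given beside the counts of this fit. Libraries of the same number were correlated between -0.112 and 0.436 in their deviations, and in none of the comparisons were all 4 pairs over 0.1, so the numbers were not taken to pair the libraries. In UUO early against UUO late, 3 of 4 pairs were over 0.1 and 3 of 4 libraries correlated best with their own number, a hint from the data and not from the design. Depth limits the sham values of Ms4a1, Cd3e, Cd3d and Cd4 most, which rest on an estimated 9 fragments or fewer per library.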
